A study of Rattus norvegicus with 12 samples.

Results

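The enzymes described here turn glucose and mitochondrial substrates into usable energy: Pgk1, a step of glycolysis, Ldha, which links pyruvate to lactate, Pdk3, which restrains the entry of pyruvate into mitochondria, and Sdha, a subunit of a citric acid cycle enzyme. They were measured as RNA in the thoracic aorta of rats. The members are every probe whose accession the RefSeq gene table gives to rat Ldha, Pgk1, Sdha or Pdk3. That rule found 5 probes of 4 genes among 39 probes of 38 genes that could be named, out of 38321 probes on the array that were not controls. Ldha has 2 probes, which were kept apart. One of them (CUST_6_PI421900130) and the probes of Pgk1 (CUST_2_PI421900130) and Sdha (CUST_12_PI421900130) belong to a set of reference genes spotted 30 times, and the first is called the Ldha reference probe. The other (A_44_P210461), called the Ldha catalogue probe, and the probe of Pdk3 (A_44_P443343) have 10 spots each.

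The 12 arrays held 4 groups of 3, all from male rats that were 12 weeks old when treatment began. Wistar-Kyoto rats (WKY), a strain of normal blood pressure, received drinking water and serve as the comparison strain for spontaneously hypertensive rats (SHR). The SHRs were divided at random into SHR-C, given water, SHR-Bh, given the high dose of the herbal granule mixture BSJY (6.75 g/ml/day as labelled), and SHR-Ca, given captopril, an inhibitor of angiotensin-converting enzyme (0.125 g/ml/day as labelled). Every group was dosed by gavage once a day for 16 weeks. Age is labelled as 32 weeks, which the start and the duration do not add up to, and their protocol calls the aortas irradiated without a dose. A low-dose BSJY group named in the labels is not analysed here. The labels do not say that each array held RNA of a separate animal, so the p-values measure only the spread between these samples.

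In glycolysis, phosphoglycerate kinase 1 (Pgk1) makes ATP while turning 1,3-bisphosphoglycerate into 3-phosphoglycerate, and lactate dehydrogenase A (Ldha) reduces pyruvate to lactate and so renews the NAD+ that glycolysis needs. Pyruvate dehydrogenase kinases such as Pdk3 phosphorylate and switch off the complex that turns pyruvate into acetyl-CoA for the citric acid cycle, where Sdha, the flavoprotein subunit of succinate dehydrogenase (respiratory complex II), oxidises succinate. Arterial smooth muscle is known to make much lactate even when oxygen is plentiful, and Pgk1 and Ldha are textbook targets of the hypoxia-inducible factor HIF-1.

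Promoters of 3 of the 4 genes were found in the RefSeq promoter table (build GRCr8), namely those of Ldha, Sdha and Pdk3, and the 250 bases before the annotated start were searched for known motifs on both strands. The Ldha and Sdha promoters are shown because they carry different motifs, those of HIF-1 and of nuclear respiratory factor 1 (NRF1), a regulator of mitochondrial genes. The motifs were chosen after the promoters had been read. In the Ldha promoter (chr1:106507842-106508091, plus strand) capitals mark ACGTG or GCGTG on either strand, the core of the HIF-1 site, and in the Sdha promoter (chr1:30764303-30764552, plus strand) they mark GCGCANGCGC, the NRF1 motif:
Ldha: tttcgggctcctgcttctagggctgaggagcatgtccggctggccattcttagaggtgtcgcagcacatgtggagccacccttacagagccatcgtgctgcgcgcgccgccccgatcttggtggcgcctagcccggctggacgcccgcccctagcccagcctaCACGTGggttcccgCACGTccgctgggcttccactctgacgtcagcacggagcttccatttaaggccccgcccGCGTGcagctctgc
Sdha: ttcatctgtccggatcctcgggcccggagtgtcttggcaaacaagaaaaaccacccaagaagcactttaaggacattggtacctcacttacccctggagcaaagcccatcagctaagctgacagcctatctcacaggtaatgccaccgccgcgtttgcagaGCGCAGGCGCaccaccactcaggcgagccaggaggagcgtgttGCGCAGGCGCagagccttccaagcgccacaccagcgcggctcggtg
The Ldha promoter held 4 matches to the HIF-1 core. A pair of them overlapped in CACGTG at positions -87 to -82, the next lay at -73 to -69 and the last at -14 to -10, counted from the start site. It also held TGACGTCA, the cyclic AMP response element, at -51 to -44, and no NRF1 match. The Sdha promoter held 2 NRF1 matches, at -89 to -80 and -46 to -37, and 1 HIF-1 core. The Pdk3 promoter (X chromosome, minus strand) held 5 HIF-1 cores and no NRF1 match. Over the same 250 bases, 36.7% of 33469 promoters held a HIF-1 core, 1.59% the cyclic AMP element and 3.75% the NRF1 motif. The short core is therefore common, and a match is only a stretch of letters.

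The arrays of the strains stood apart. Correlations were taken over probes that passed the filter on dim probes and had a value on every array. WKY arrays correlated with each other at 0.954 to 0.989 and with SHR arrays at 0.767 to 0.832, while SHR arrays correlated with each other at 0.929 to 0.986. At its 75th percentile, intensity ranged over 182.0 to 384.8 for WKY and 109.8 to 190.2 for SHR, and no spot was saturated. All WKY arrays were scanned in a session of their own, 625 days after the last SHR array, so strain and scan session cannot be told apart in any comparison with WKY. Levels below are log2 of the processed intensity minus the 75th percentile of the same array. None of the 54 marker genes listed for smooth muscle, endothelium, fibroblasts, fat, other muscle, blood, immune cells and nerve was named on the array, so neither the tissue label nor a change in its cells could be checked. In bulk tissue, fewer cells of a type and less RNA per cell cannot be told apart. Of 80 genes listed for fuel use, the same 4 were named on the array: 1 of 21 for glucose entry and glycolysis, 1 of 6 for lactate, 1 of 13 for pyruvate entry, 1 of 19 for the citric acid cycle, 0 of 8 for fatty acid entry and 0 of 13 for their control.

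In the captopril group, at this scaling, the Ldha reference probe and Pgk1 fell to about 0.49 and 0.50 of their WKY levels, and neither differed from the other SHR groups past the threshold. The median change of all tested probes from WKY to that group was -0.55. The Ldha catalogue probe was lowest in WKY and, at this scaling, rose in all 3 SHR groups. Sdha did not pass the test in any comparison, and Pdk3 was too dim to be tested.

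**Figure D1:**
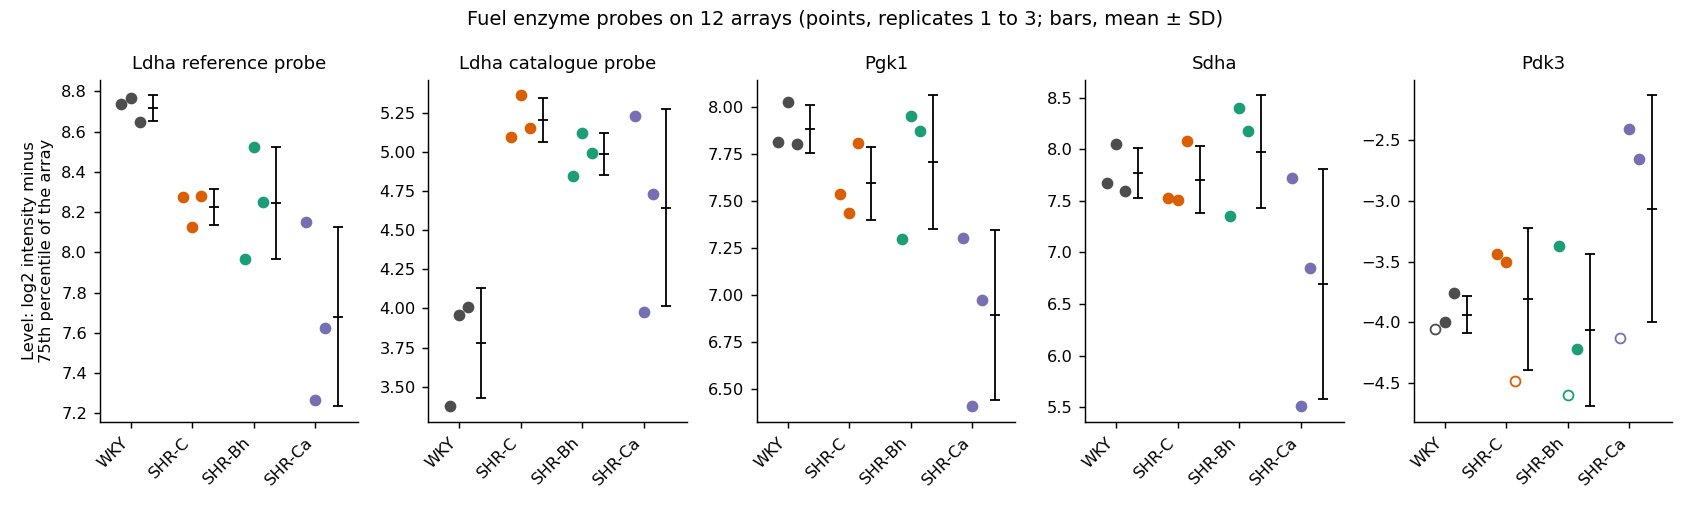
Level of each of the 5 probes on each array (y axis, log2 intensity minus the 75th percentile of the array; the scale differs between panels) by group, with replicates 1 to 3 from left to right, the mean and the SD; open points were not well above background. The Ldha reference probe lay between 8.65 and 8.77 in WKY and between 7.26 and 8.52 in the SHR groups, and the Ldha catalogue probe between 3.37 and 4.01 in WKY and 3.98 and 5.36 in SHR.

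Pgk1, the ATP-making step of glycolysis, had levels of 7.81, 8.03 and 7.80 in WKY. In SHR-C they were 7.54, 7.44 and 7.81. In SHR-Bh they were 7.30, 7.95 and 7.87, and in SHR-Ca 7.30, 6.40 and 6.97. The captopril arrays lay below every WKY and every SHR-C array, and shared only the edge of the range with SHR-Bh 1, at 7.30 on both. By mean the order was WKY (7.88 ± 0.13, SD, n = 3), SHR-Bh (7.71 ± 0.36), SHR-C (7.59 ± 0.19) and SHR-Ca (6.89 ± 0.45). Neighbours in that order did not differ past the threshold. From WKY to SHR-Ca, the ends of the order, Pgk1 fell by 0.99 (SE 0.28, limma adjusted p = 0.0080). The same comparison gave -0.29 for SHR-C (adjusted p = 0.38) and -0.18 for SHR-Bh (adjusted p = 0.59).

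The Ldha reference probe, for the enzyme that makes lactate, stood at 8.74, 8.77 and 8.65 in WKY. It stood at 8.28, 8.12 and 8.28 in SHR-C. In SHR-Bh it was 7.97, 8.52 and 8.25, and in SHR-Ca 8.15, 7.26 and 7.62. All 9 SHR arrays lay below all 3 WKY arrays, also before scaling, where intensity was at least 77788 in WKY and at most 67766 in SHR. Such separation was common: 71.2% to 74.9% of all probes did not overlap, in either direction, in the comparisons with WKY. Before scaling, the median change of all tested probes from WKY was itself -1.24 to -1.51. Relative to that median the Ldha reference probe stood at -0.07 (SHR-C) and 0.04 (SHR-Bh), and at -0.48 for SHR-Ca. The means ran from WKY (8.72 ± 0.06, SD, n = 3) through SHR-Bh (8.25 ± 0.28) and SHR-C (8.23 ± 0.09) to SHR-Ca (7.68 ± 0.45), and no neighbours differed past the threshold. From WKY to SHR-Ca the probe fell by 1.04 (SE 0.25, limma adjusted p = 0.0037), a 2.05-fold difference. Its difference from WKY was -0.49 for SHR-C (SE 0.25, adjusted p = 0.11) and -0.47 for SHR-Bh (adjusted p = 0.12), neither of which passed.

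The Ldha catalogue probe went the other way from WKY. Its levels were 3.37, 3.96 and 4.01 in WKY and 5.10, 5.36 and 5.15 in SHR-C. They were 4.85, 5.12 and 4.99 in SHR-Bh, and 5.23, 3.98 and 4.73 in SHR-Ca. Every SHR-C and SHR-Bh array lay above every WKY array, whereas SHR-Ca 2 fell within the WKY range. By mean the order was SHR-C (5.20 ± 0.14, SD, n = 3), SHR-Bh (4.99 ± 0.14), SHR-Ca (4.64 ± 0.63) and WKY (3.78 ± 0.35). Only the last neighbours, SHR-Ca and WKY, differed past the threshold. The probe rose by 1.42 in SHR-C (SE 0.31, limma adjusted p = 0.0021), or 2.68-fold, by 1.21 in SHR-Bh (adjusted p = 0.0050), or 2.31-fold, and by 0.86 in SHR-Ca (adjusted p = 0.029), or 1.82-fold. The SHR-Ca call was lost without SHR-Ca 1 (0.57, adjusted p = 0.11), without SHR-Ca 3 (0.82, adjusted p = 0.072) and without WKY 1 (0.66, adjusted p = 0.11), so 3 of the 6 arrays compared could each end it.

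The 2 probes of Ldha were then set against each other within each array, where scaling between arrays cancels. The size of that difference reflects how each probe binds, so only its change between arrays can be read. Reference minus catalogue probe was 4.94 ± 0.38 in WKY (SD, n = 3) and 3.02 ± 0.23 in SHR-C. In the treated groups it was 3.26 ± 0.14 (SHR-Bh) and 3.04 ± 0.22 (SHR-Ca). The lowest WKY array stood at 4.63 and the highest SHR array at 3.40, so strains did not overlap. An exact permutation test of the F statistic over all 15400 divisions of the arrays into 4 groups gave p = 0.0066. Between WKY and SHR-C the ratio of the probes differed by 1.91, or 3.77-fold, and between WKY and SHR-Ca by 1.90, or 3.74-fold. For WKY against SHR-Bh it was 1.68, or 3.20-fold, and each of these 3 comparisons gave an exact permutation p of 0.10, the smallest that 3 against 3 allows. Quantile normalization does not scale by 1 constant per array, and the ratio was not tested with it. With it, SHR-C minus WKY was -0.41 for the reference probe and 1.16 for the catalogue probe, against -0.49 and 1.42 above. Among the 9 SHR arrays alone the exact permutation test gave p = 0.36. The ratio therefore separated the strains, and not detectably the treatments, and it carries the same scan session as the strain. RefSeq names 30 pseudogenes after Ldha, 8 after Pgk1 and none after Sdha or Pdk3. Which transcripts either probe binds was not tested.

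**Figure D2:**
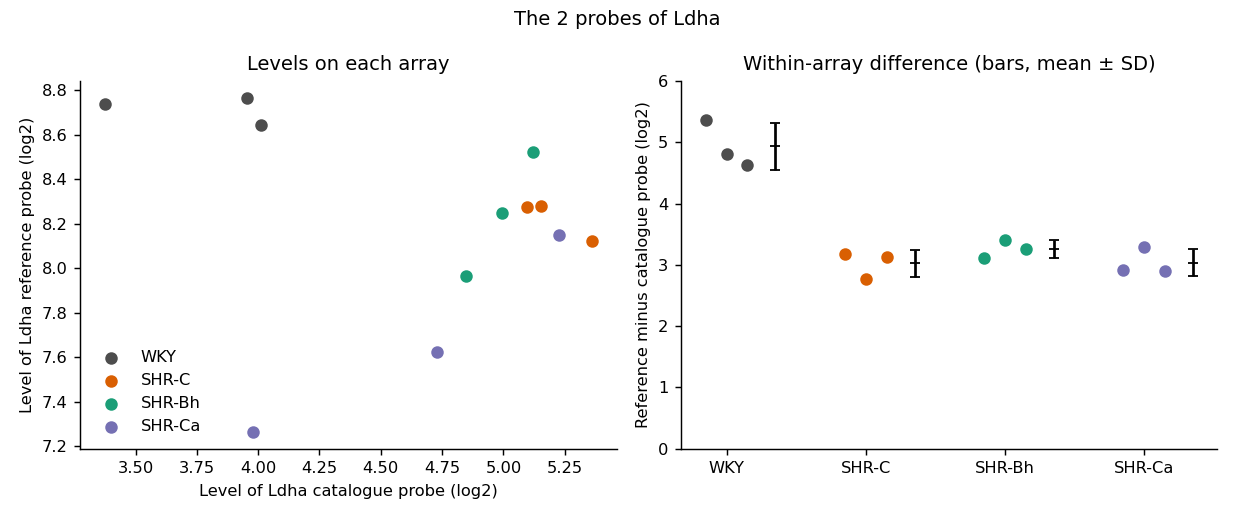
Left, level of the Ldha reference probe (y axis) against that of the Ldha catalogue probe (x axis) on each of 12 arrays, both log2 relative to the 75th percentile; right, their difference within each array by group, with mean and SD. WKY arrays sit at 4.63 or more in the right panel and SHR arrays at 3.40 or less, while within the SHR arrays of the left panel low values of one probe go with low values of the other.

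Sdha, the catalytic subunit of succinate dehydrogenase, had levels of 7.68, 8.05 and 7.60 in WKY. Its levels were 7.53, 7.51 and 8.08 in SHR-C and 7.36, 8.40 and 8.18 in SHR-Bh. In SHR-Ca they were 7.72, 5.51 and 6.85. The first 3 groups overlapped throughout, and in SHR-Ca the spread was the largest of any group (SD 1.12), with SHR-Ca 1 inside the WKY range and the other two arrays below every other array. The means ran SHR-Bh (7.98 ± 0.55, SD, n = 3), WKY (7.78 ± 0.24), SHR-C (7.71 ± 0.32) and SHR-Ca (6.69 ± 1.12), with no neighbours that differed past the threshold. Between SHR-Ca and WKY the difference was -1.08 (SE 0.48, limma adjusted p = 0.068). It was -1.60 without SHR-Ca 1 (adjusted p = 0.0081) and -0.49 without SHR-Ca 2 (adjusted p = 0.28). For SHR-C the difference from WKY was -0.07 (adjusted p = 0.91) and for SHR-Bh 0.20 (adjusted p = 0.73).

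Pdk3, the kinase that restrains pyruvate dehydrogenase, was close to background. Intensities ran from 6.8 to 34.6, and the probe was well above background on 2 of 3 arrays in each group, the exceptions being SHR-Ca 1, SHR-Bh 2, SHR-C 3 and WKY 1. It did not pass the filter on dim probes. Its levels were -4.05, -3.99 and -3.76 in WKY and -3.44, -3.50 and -4.48 in SHR-C. They were -3.37, -4.60 and -4.22 in SHR-Bh, and -4.13, -2.40 and -2.66 in SHR-Ca. SHR-Ca 2 and 3, the arrays with the lowest Sdha, had the highest Pdk3 levels of the 12, and the groups overlapped. That ranking rested on the scaling: by intensity, SHR-Ca 3 (21.1) lay below WKY 2 (21.6) and WKY 3 (28.4). Without the filter, SHR-Ca minus WKY was 0.87 (SE 0.48, limma adjusted p = 0.14), and the other 5 comparisons gave adjusted p of 0.63 or more. The spots of Pdk3 on one array had a median SD of 0.22, against 0.048 to 0.060 for the other 4 probes.

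Counted over the members, 1 of 4 tested probes passed in SHR-C against WKY, the Ldha catalogue probe, and it was higher. In that comparison 61.7% of all 29614 tested probes passed, 21.9% higher and 39.8% lower. The groups did not overlap for 2 of 4 members and for 71.2% of all probes. In SHR-Bh against WKY the same probe was the only one of 4 that passed, against 67.2% of all probes, with 24.4% higher and 42.8% lower. There too 2 of 4 members did not overlap, against 74.9%. In SHR-Ca against WKY, 3 of 4 passed, 1 higher and 2 lower, against 66.4% of all probes, with 23.5% higher and 42.9% lower. The groups did not overlap for 2 of 4 members and for 71.4% of probes. With backgrounds this high, these counts are not a result about the members.

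The size of a change from WKY rested on the scaling. From WKY to SHR-C the median change of all tested probes was -0.42, to SHR-Bh it was -0.51 and to SHR-Ca -0.55. With normexp background correction the same medians were 0.18, 0.14 and 0.09, and the share of calls that were higher moved from 35.5% to 57.1% in SHR-C, from 36.4% to 55.3% in SHR-Bh and from 35.4% to 53.0% in SHR-Ca. Scaled to the 7 reference probes of other genes, it was 16.8%, 23.9% and 18.0%, and with quantile normalization 47.7%, 47.7% and 47.1%. Relative to the median probe, the SHR-Ca difference from WKY was -0.48 for the Ldha reference probe, -0.43 for Pgk1 and -0.53 for Sdha. With normexp these were -1.25, -1.19 and -1.28. So all 3 lay below the median probe under both. The Ldha catalogue probe lay above it in all 3 comparisons, by 1.42 to 1.85, and with normexp by 0.61 to 1.02.

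The untreated SHR group was less settled. Relative to the median probe, SHR-C minus WKY was -0.07 for the Ldha reference probe, 0.13 for Pgk1 and 0.35 for Sdha, and with normexp -0.84, -0.64 and -0.42. With the stricter filter on dim probes, and no change of background correction, they were -0.69, -0.49 and -0.27. With quantile normalization they were -0.32, -0.30 and -0.07. Their place relative to the median thus depended on the background correction, the normalization and the filter on dim probes. Scaled to the 7 reference probes, the Ldha reference probe fell by 1.17 in SHR-C (limma adjusted p = 0.0089) and Pgk1 fell by 0.97 (adjusted p = 0.021). On that scale the median change of all tested probes was itself -1.11. Relative to it the Ldha reference probe stood at -0.07 and Pgk1 at 0.14. With that scaling the difference of the Ldha catalogue probe from WKY was 0.74 for SHR-C (adjusted p = 0.060), 0.74 for SHR-Bh (adjusted p = 0.058) and 0.15 for SHR-Ca (adjusted p = 0.69). Its rise was thus not called on that scale. The fall of the Ldha reference probe and of Pgk1 in SHR-Ca was called under each of the 5 scalings plotted. These calls do not rank the rise and the falls, because that scale lowered most probes relative to WKY. The median of the 7 reference probes itself lay 4.73 above the 75th percentile in WKY and 5.19 to 5.45 above it in the SHR groups. Relative to the median change on that scale, the catalogue probe stayed at 1.42 to 1.85 across the comparisons with WKY. For SHR-Ca the Ldha reference probe stood at -0.48 and Pgk1 at -0.43. Scaled to the 7 reference probes, SHR-Ca minus WKY was -1.75 for the Ldha reference probe, -1.71 for Pgk1 and -1.80 for Sdha, which was then called (adjusted p = 0.0079). The median change of all tested probes in that comparison was -1.27. The sign of Sdha in SHR-Bh turned with the scaling, from 0.20 to -0.26.

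**Figure D3:**
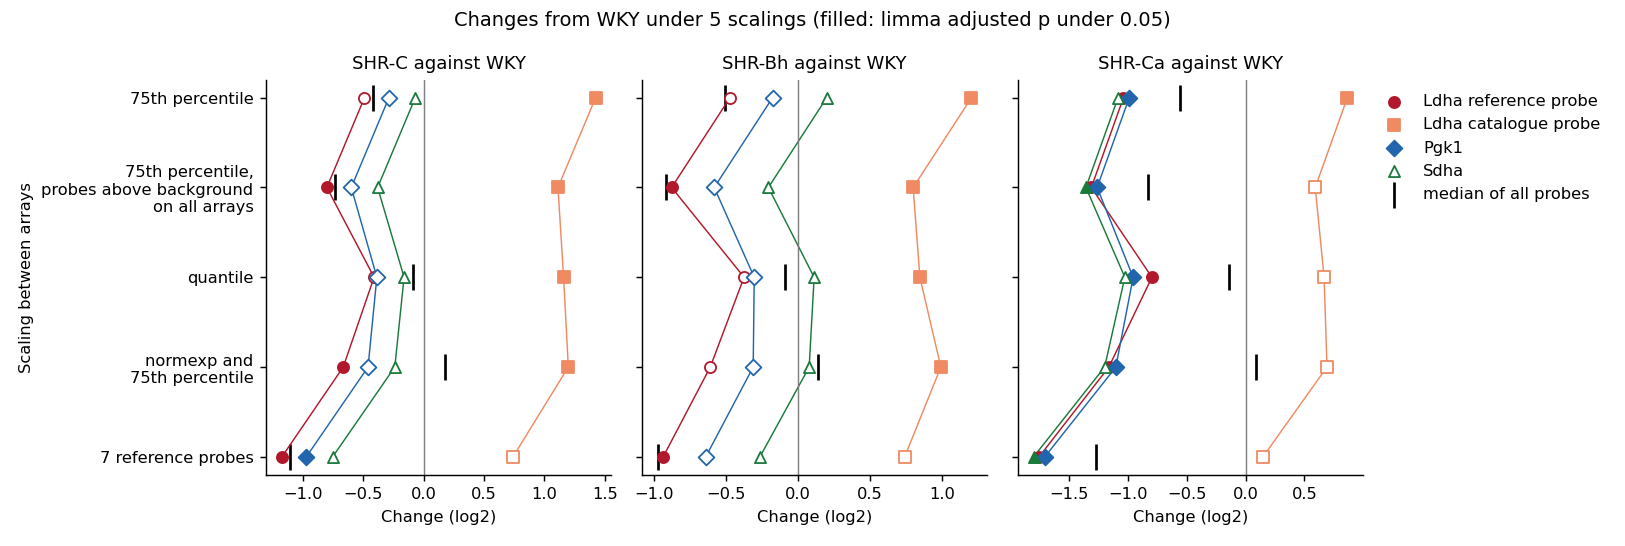
Change from WKY (x axis, log2) of the 4 tested probes in the 3 SHR groups under 5 scalings between arrays (y axis), with black bars at the median change of all tested probes and filled symbols where limma's adjusted p was under 0.05. The Ldha reference probe and Pgk1 are filled in SHR-Ca in every row, and the order of the probes changes little while the whole set moves with the scaling.

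The treatments were compared with untreated SHRs next. In SHR-Bh against SHR-C none of the 4 probes passed limma's adjusted threshold, and 0.0945% of all probes did. No member had an unadjusted p under 0.05 or groups that did not overlap, against 15.7% of all probes without overlap. The differences were 0.02 for the Ldha reference probe (95% interval -0.54 to 0.58), -0.22 for the catalogue probe (-0.90 to 0.47), 0.11 for Pgk1 (-0.49 to 0.72) and 0.27 for Sdha (-0.79 to 1.33). These intervals include changes in either direction, so the absence of a call does not show that BSJY left these enzymes alone. Each of the 4 differences changed sign under at least 1 alternative setting, such as the scan session as a block (-0.27 for Sdha).

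In SHR-Ca against SHR-C all 4 differences were negative and none passed limma's adjusted threshold, which 0.28% of all probes did. Pgk1 differed by -0.70 (SE 0.28, 95% interval -1.31 to -0.10, adjusted p = 0.36, unadjusted p = 0.027), and it was the only member whose groups did not overlap, against 16.6% of all probes. The Ldha reference probe differed by -0.55 (adjusted p = 0.41), the catalogue probe by -0.56 (adjusted p = 0.48) and Sdha by -1.01 (adjusted p = 0.43). Within the scan session that held 2 arrays of each group, the differences were -0.49, -0.65, -0.77 and -1.18 for the Ldha reference probe, the Ldha catalogue probe, Pgk1 and Sdha (adjusted p = 0.95). SHR-Ca 2 was the lowest SHR-Ca array for each of the 4 probes, so leaving it out had to shrink every difference. Without it the differences in the same order were -0.34, -0.23, -0.46 and -0.42. With other single arrays left out they reached -0.78, -0.85, -0.90 and -1.53.

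The treated groups were also set directly against each other, with the same SHR-Ca arrays as in the comparison with SHR-C, and none of the 4 probes passed. SHR-Bh minus SHR-Ca was 0.81 for Pgk1 (unadjusted p = 0.013) and 1.28 for Sdha (unadjusted p = 0.022). It was 0.57 for the Ldha reference probe (unadjusted p = 0.047) and 0.34 for the catalogue probe (unadjusted p = 0.29). With limma's adjustment over all probes the p-values were 0.69 to 0.80, and 0% of all probes passed, while 2126 had an unadjusted p under 0.05. No member's groups were free of overlap, against 9.47% of all probes. SHR-Ca 2 was the lowest SHR-Ca array for all 4 probes, so each difference had to shrink without it. The differences were then 0.69 for Sdha, 0.57 for Pgk1, 0.36 for the Ldha reference probe and 0.0086 for the catalogue probe. With other single arrays left out they reached 1.80, 1.02, 0.80 and 0.63 in the same order. Within the session that held 2 SHR-Bh arrays and 1 SHR-Ca array, the differences were 0.61 for Pgk1, 0.91 for Sdha, 0.48 for the Ldha reference probe and 0.19 for the catalogue probe.

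**Figure D4:**
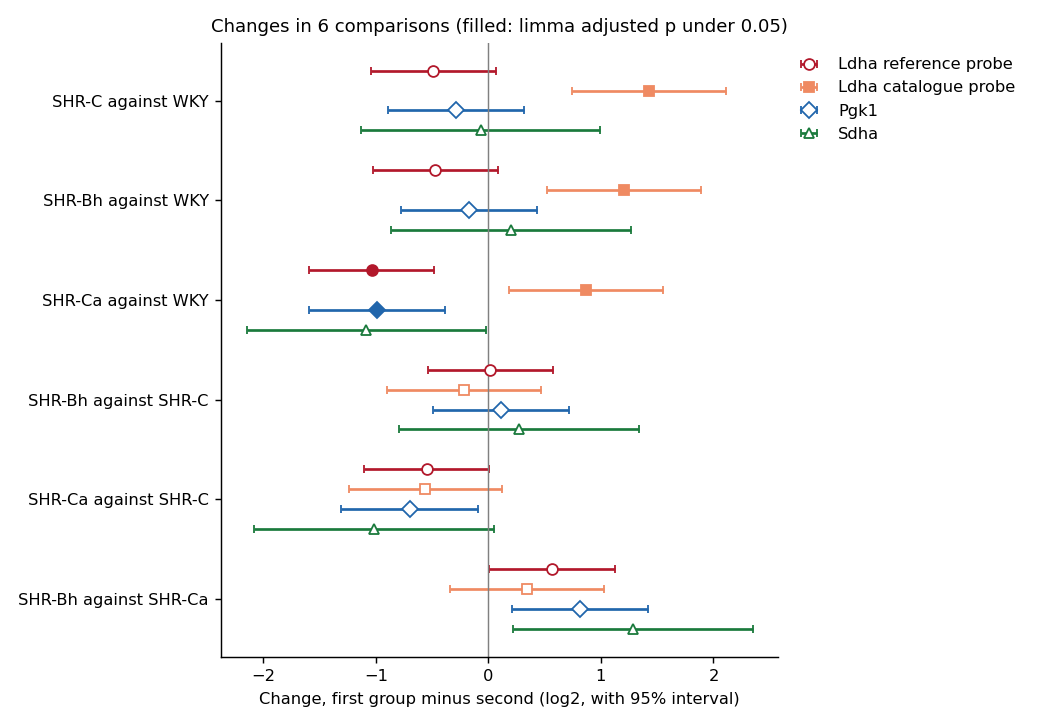
Change of the 4 tested probes (x axis, log2, first group minus second, with the 95% interval of the limma fit) in each of the 6 comparisons (y axis); filled symbols passed an adjusted p of 0.05. The filled symbols are the Ldha catalogue probe in the 3 comparisons with WKY and the Ldha reference probe and Pgk1 in SHR-Ca against WKY, and the intervals of Sdha are the widest.

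The 3 enzymes on 30 spots were low together on 2 of the 3 captopril arrays. Against the mean of SHR-C, array SHR-Ca 2 stood at -2.20 for Sdha, -1.19 for Pgk1 and -0.96 for the Ldha reference probe. On the same array the other 7 reference probes (Actb, B2m, Gusb, Hprt1, Hsp90ab1, Rplp1 and Rpl13a) stood between -0.11 and 1.36, with a median of 0.31. SHR-Ca 2 was thus low in the fuel enzymes and not in the rest of the set. On SHR-Ca 3 the values were -0.85, -0.62 and -0.60, and the other 7 ran from -0.46 to 1.31. On SHR-Ca 1 they were 0.01, -0.29 and -0.08, and the other 7 ran from -0.29 to 1.24. So 2 of 3 captopril arrays had all 3 enzymes below each of the other 7 probes, and 1 did not. By mean level these enzyme probes stood at percentiles 99.36 (Pgk1), 99.39 (Sdha) and 99.82 (Ldha) of tested probes. Whether other probes of that brightness were also low on these arrays was not tested. SHR-Ca 1 and SHR-Ca 2 shared a scan session and differed by 2.21 in Sdha. The labels give no other attribute in which these arrays differ, and the source of the spread was not tested.

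**Figure D5:**
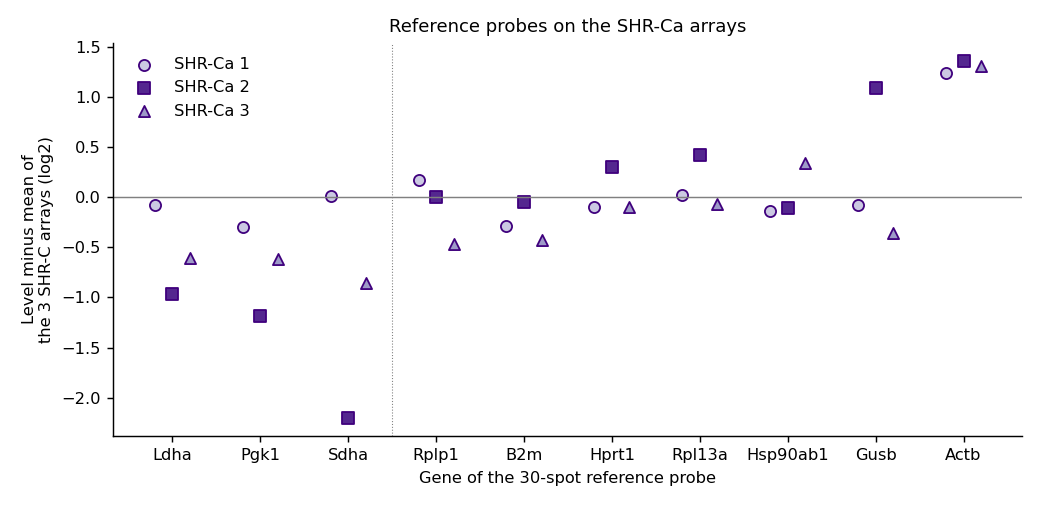
Level of the 10 probes with 30 spots (x axis, by gene) on each SHR-Ca array, as the difference from the mean of the 3 SHR-C arrays (y axis, log2). Left of the dotted line, Ldha, Pgk1 and Sdha lie between -2.20 and -0.60 on SHR-Ca 2 and SHR-Ca 3 and between -0.29 and 0.01 on SHR-Ca 1; Actb is the highest of the others on every array.

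Over all arrays, the Ldha reference probe and Pgk1 kept the closest company. The level of the Ldha reference probe had an SD of 0.45 over the 12 arrays and that of Pgk1 0.47, whereas their difference within an array had an SD of 0.16. That difference was widest in WKY (0.84 ± 0.09, SD, n = 3) and SHR-Ca (0.79 ± 0.12), then SHR-C (0.63 ± 0.14) and SHR-Bh (0.54 ± 0.15). Sdha varied more (SD 0.76), and its difference from Pgk1 had an SD of 0.36. The difference of Pdk3 from Pgk1 had an SD of 1.11. Pdk3 was close to background, so whether it followed the other enzymes could not be read. For the Ldha catalogue probe the difference from Pgk1 had an SD of 0.80, and over the 9 SHR arrays alone 0.29. These SDs describe 12 arrays that share the strain and the scan session, and they carry no test.

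Likeness was also measured against all named genes, as the root mean square difference of centred levels over the 12 arrays. For the Ldha reference probe the nearest probes of other genes were Pgk1 (0.16), Rplp1 (0.34) and Sdha (0.45). For Pgk1 they were Ldha (0.16), Sdha (0.35) and Rplp1 (0.40), and for Sdha they were Pgk1 (0.35), Ldha (0.45) and Rplp1 (0.69). Each of the 3 enzymes thus had the other two among its 3 nearest, and these probes and that of Rplp1, a ribosomal protein, also share the set spotted 30 times. The catalogue probe of Ldha was nearest to Ndfip1 (0.35), Pdcd10 (0.39) and Hsp90ab1 (0.44). Its distance from the reference probe of its own gene was 0.83, and 15 of 37 probes of other genes were closer to that probe. Pdk3 was nearest to Fgf2 (0.51), Nlrp3 (0.55) and Dlg4 (0.55).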

How the data were processed

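Each of 12 thoracic aorta samples has 1 single-colour Agilent array, deposited as scanner output. The processed intensity of each spot, with background subtracted, and its flags were made by Agilent Feature Extraction 11.0.1.1, per the file headers. Without flagged outlier spots, the mean of log2 intensity was taken per probe and put relative to the 75th percentile of its array. Testing required that more than 0.5 of a probe's spots be well above background on every array of some group. That left 29614 of 38321 probes (77.3%). All 4 groups were fitted in limma 3.58.1 (R 4.3.3), with two-sided tests adjusted by Benjamini-Hochberg over all tested probes at a threshold of 0.05; the fit was tested on simulated data.

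The members, the lists of genes and the tests were chosen with earlier results of these data known. The rule for named genes took the 5 member probes whatever their p, listed fuel genes, and the 3 named probes most like each member. Probes were named by accession through the RefSeq table. Arrays with the same scan time formed 5 scan sessions. Alternatives covered scaling, background correction (normexp with an offset of 50 on the deposited median intensities of spot and background, since no column of means was in the files), the filter on dim probes, outlier spots, variance model, array weights, scan session, replicate number and each array left out. The number of arrays limits the precision.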

Additional observations from a re-analysis of the deposited data

How the results depend on the processing

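Over 504 alternative values of 25 results, 455 were unchanged, and the cause of the other 49 was not tested. Unchanged meant the same direction and the same side of limma's threshold. For the ratio of the Ldha probes it meant an exact permutation p under 0.05. A result that was not called and stayed uncalled in the same direction also counted as unchanged. Some settings, such as the variance model, altered only the spread and could not turn a direction. The share unchanged is therefore not a measure of how firm the calls are. Scaled to the 7 reference probes, differences of the Ldha catalogue probe from WKY were 0.74 (SHR-C), 0.74 (SHR-Bh) and 0.15 (SHR-Ca), all no longer called, and SHR-Bh minus SHR-C was 0.0029. With that scaling the Ldha reference probe was called at -1.17 (SHR-C) and -0.94 (SHR-Bh) against WKY, Pgk1 at -0.97 (SHR-C) and Sdha at -1.80 (SHR-Ca), while Sdha in SHR-Bh turned to -0.26. The median change of all tested probes from WKY was then -1.11 (SHR-C), -0.97 (SHR-Bh) and -1.27 (SHR-Ca), and with no scaling -1.24, -1.51 and -1.51. With no scaling the catalogue probe stood at 0.60 (SHR-C), 0.21 (SHR-Bh) and -0.091 (SHR-Ca) against WKY, none called, the Ldha reference probe was called at -1.31 (SHR-C) and -1.47 (SHR-Bh), Pgk1 at -1.18 (SHR-Bh) and Sdha at -2.04 (SHR-Ca), Sdha in SHR-Bh turned to -0.80, and SHR-Bh minus SHR-C turned to -0.16 for the Ldha reference probe and -0.068 for Pgk1. With the percentile taken over probes above background on all arrays, the catalogue probe lost its call in SHR-Ca (0.59), the Ldha reference probe was called at -0.80 (SHR-C) and -0.88 (SHR-Bh) and Sdha at -1.36 (SHR-Ca), Sdha in SHR-Bh turned to -0.20, and the Ldha reference probe in SHR-Bh against SHR-C to -0.075. The catalogue probe in SHR-Ca against WKY also lost its call with normexp (0.69), quantile normalization (0.67) and a fit of only the compared groups (0.86). The Ldha reference probe in SHR-C against WKY was called with normexp (-0.67), array weights (-0.54) and only the compared groups (-0.49), and with array weights it was called in SHR-Bh (-0.44), as was Sdha in SHR-Ca (-1.07). With the scan session as a fixed block, SHR-Bh minus SHR-C turned to -0.011 for the Ldha reference probe, -0.16 for Pgk1 and -0.27 for Sdha. Over the 9 SHR arrays alone the largest difference in the ratio of the Ldha probes was 0.24 (exact permutation p = 0.36).

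With single arrays left out, the catalogue probe in SHR-Ca against WKY ran from 0.57 to 1.20, losing its call without SHR-Ca 1 (0.57), SHR-Ca 3 (0.82) or WKY 1 (0.66), and Sdha from -1.60, called without SHR-Ca 1, to -0.49. Sdha ran from -0.26 to 0.069 in SHR-C and from -0.0099 to 0.51 in SHR-Bh against WKY, Pgk1 in SHR-Bh against WKY from -0.30 to 0.029, and SHR-Bh minus SHR-C from -0.12 to 0.16 for the Ldha reference probe and from -0.010 to 0.32 for Pgk1. With single arrays left out, SHR-Ca minus WKY ran from -1.27 to -0.83 for the Ldha reference probe and from -1.19 to -0.74 for Pgk1. It was -1.75 and -1.71 scaled to the 7 reference probes and -1.99 and -1.94 with no scaling. Adjusted p was at most 0.015 and 0.033 over all their alternatives. Replicate numbers did not clearly pair the arrays: correlations of deviations ran from -0.55 to 0.48 over 18 same-numbered pairs, 7 of them over 0.1. Over 36 other pairs they ran from -0.40 to 0.53, with 12 over 0.1. A replicate block changed no call, and Pgk1 in SHR-Ca against WKY kept -0.99 (adjusted p = 0.016). Signal limits Pdk3, and 3 arrays a group limit the rest.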
